A study of Mus musculus with 12 samples.

Results

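The genes described here repair DNA or signal that it is damaged. A list of 32 mouse symbols was matched to the gene column of the authors' tables, and 30 of them had a row of their own among 23735 gene models. The remaining 2, Rad54b and Atrip, appeared only in rows that the authors had merged with a neighbouring gene. By role, 11 of the 30 genes belong to the BRCA complexes and homologous recombination, 7 are Fanconi anaemia genes, 4 are damage checkpoint kinases, 5 act in base excision and single-strand break repair, and 3 in nucleotide excision or mismatch repair. All 30 passed the authors' expression filter in both main comparisons.

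RNA was sequenced from hair follicle stem cells, the slow-cycling cells of the follicle bulge that regrow the hair, sorted by flow cytometry from the back skin of mice with or without the forkhead transcription factor Foxc1. There were 12 libraries in 7 groups. Growth-phase (anagen) cells came from males at postnatal day 30 on a Black Swiss and C57BL/6 mixed background: 2 inducible knockout libraries (iKO) were set against 2 heterozygous libraries (Het). Both anagen groups carried Sox9CreER, a Cre recombinase active only after tamoxifen and driven in Sox9-expressing cells, and both received tamoxifen, so Het cells are not wild type and may have a lower Foxc1 gene dose. The second telogen, a resting phase, was sampled in the Black Swiss strain, with 2 conditional knockout libraries (cKO, K14Cre, which acts in all keratin 14-expressing epithelium) and 2 wild-type libraries (WT). In each of these groups 1 library was from a male at day 42 and 1 from a female at day 46. A further 2 second telogen iKO libraries came from tamoxifen-treated males of the mixed strain at day 60. Shh-heterozygous females of the Agouti strain gave 1 library of anagen II, an early growth substage, at about day 26 and 1 library of first telogen at about day 23, which their titles call wild type. The labels name a mouse for each library and number those of a group as replicates.

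DNA breaks are repaired accurately by homologous recombination, in which Brca1, Brca2 and their partners prepare the broken end for pairing with an intact copy, and which depends on a sister chromatid made in S phase. The Fanconi anaemia proteins unhook crosslinked strands, base excision repair removes single damaged bases, and the kinases Atm and Atr pass the alarm to Chek2 and Chek1, which hold the cell cycle. In hair follicle stem cells, which divide briefly in early anagen and rest in telogen, many of these genes are known to follow the cell cycle.

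Expression is given as FPKM, fragment counts scaled to transcript length and to the total of mapped fragments, with 1 value per group that the authors had pooled over its libraries. Fold changes and q-values are those of the authors' deposited tables, and a gene was called higher or lower at a deposited q below 0.05. Standard errors (SE) of log2 folds are approximate, each obtained by dividing the fold by its deposited test statistic. For Parp1 and Ercc2 the deposited statistic and p were far apart in several comparisons, so their SE is also given as the deposited p implies it. For many other genes the printed SE was moderately larger than the deposited p implies. Examples are Brca2 in anagen (0.33 against 0.24) and Chek2 in second telogen cKO over WT (0.42 against 0.32). In these bulk samples, fewer cells of a type and less RNA per cell cannot be told apart. Foxc1 was at 1.40 FPKM in anagen iKO cells and 23.9 FPKM in Het cells (log2 fold -4.09, SE 0.30). In the telogen table it was at 1.59 FPKM in cKO cells and 26.5 FPKM in WT cells (log2 fold -4.06, SE 0.38). Of 14 bulge markers, Sox9 lay between 59.5 and 132 FPKM in the 7 groups of the joint table, whereas Krt24 lay between 24.1 and 763 FPKM and Nfatc1 between 19.7 and 80.0 FPKM. Cd34 was at 230 FPKM in anagen iKO and 408 FPKM in Het cells, and at 401 FPKM in cKO, 513 FPKM in second telogen iKO and 883 FPKM in WT cells. Krt5 was listed at 0 in 5 groups and Krt15 in 3, as failed estimates can be.

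In anagen, 12 of the 30 repair genes were called higher in iKO than in Het cells, against 5.18% of all 13716 genes tested, and none was called lower, against 5.08%. At an unadjusted deposited p below 0.05 the counts were 19 higher and 0 lower. The share of all genes at an unadjusted p below 0.05 was not counted, here or for the unadjusted counts below. The value was larger in iKO cells for 28 of the 30 genes and smaller for 2. The median log2((FPKM + 1) ratio) was 0.67 over the repair genes and -0.02 over all genes tested.

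**Figure D1:**
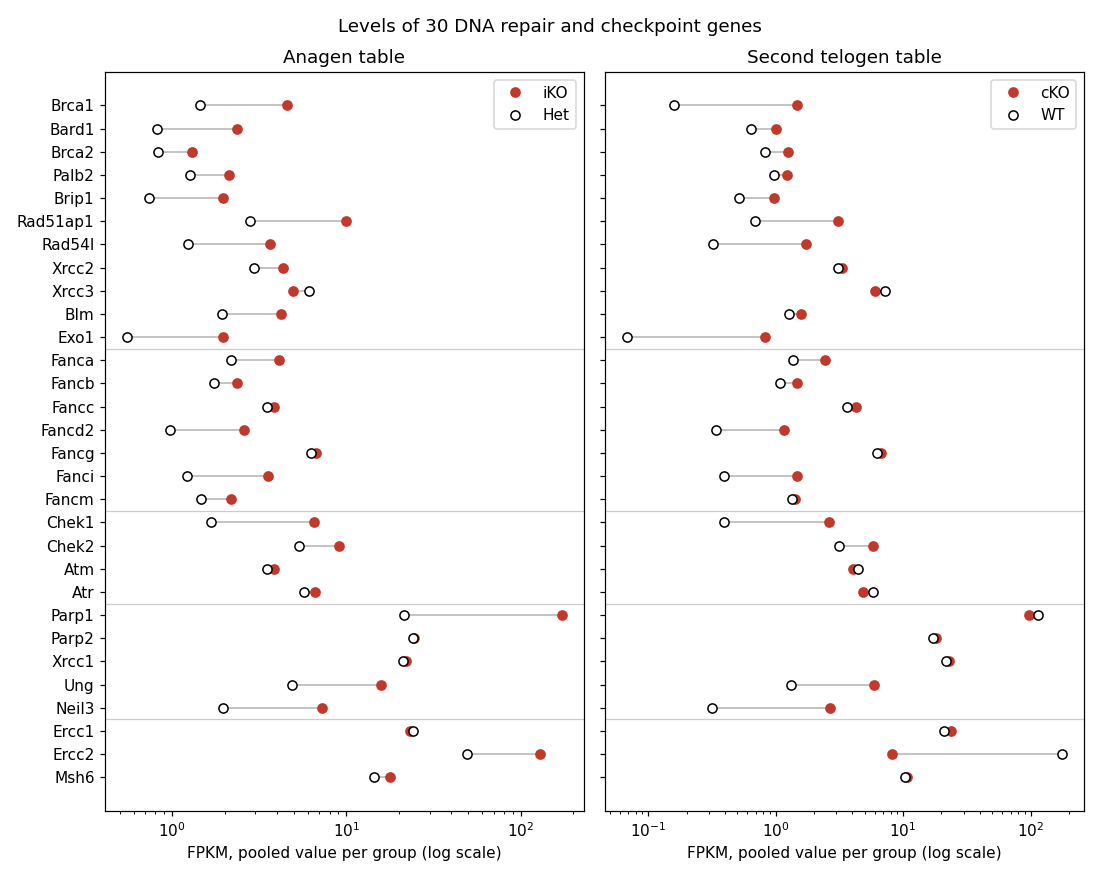
FPKM of the 30 genes (log scale, pooled value per group) in anagen iKO and Het cells on the left and in second telogen cKO and WT cells on the right; filled points are knockout groups, open points their controls, and rows are separated by role. Filled points lie to the right of open ones for 28 of 30 genes in anagen and 25 of 30 in telogen, and Ercc2 lies far to the left in cKO cells.

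Among the recombination genes, 6 of 11 rose in anagen iKO cells. Brca1, the ubiquitin ligase and scaffold of the pathway, was at 4.54 FPKM in iKO and 1.45 FPKM in Het cells (log2 fold 1.65, SE 0.32). Its ring-domain partner Bard1 was at 2.35 FPKM in iKO and 0.816 FPKM in Het cells (log2 fold 1.52, SE 0.37). The Brca1-binding helicase Brip1 was at 1.95 FPKM in iKO and 0.732 FPKM in Het cells (log2 fold 1.41, SE 0.37). The log2 folds of these 3 partners differed from each other by less than any of their SEs.

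The largest recombination folds belonged to Exo1 and Rad51ap1. Exo1, an exonuclease that resects broken ends, was at 1.97 FPKM in iKO and 0.552 FPKM in Het cells (log2 fold 1.84, SE 0.42). Rad51ap1, which stimulates strand pairing, was at 9.90 FPKM in iKO and 2.79 FPKM in Het cells (log2 fold 1.83, SE 0.35). Blm, the helicase mutated in Bloom syndrome, was at 4.22 FPKM in iKO and 1.93 FPKM in Het cells (log2 fold 1.13, SE 0.33). All 6 had the deposited q of 0.00106, which is that of the smallest deposited p, 5e-05.

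The other 5 recombination genes did not pass. Rad54l, a motor protein that moves along double-stranded DNA, had values as far apart as those of its neighbours, 3.64 FPKM in iKO and 1.23 FPKM in Het cells, but an SE of 1.08 on a log2 fold of 1.56 and a deposited q of 0.256. Brca2, which acts after end resection, was at 1.30 FPKM in iKO and 0.827 FPKM in Het cells with a deposited q of 0.0619. Palb2, the bridge between Brca1 and Brca2, was at 2.11 FPKM in iKO and 1.26 FPKM in Het cells (deposited q 0.158). The values of Xrcc2 and Xrcc3, which act in strand exchange, pointed in opposite directions: Xrcc2 had a log2 fold of 0.55 (SE 0.32) and Xrcc3 of -0.30 (SE 0.71), neither called. The merged row of Fsbp and Rad54b was called higher, at 5.70 FPKM in iKO and 1.81 FPKM in Het cells (log2 fold 1.66, SE 0.34), but its reads cannot be assigned to either gene.

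Of the Fanconi anaemia genes, 1 of 7 rose. Fancd2, which is ubiquitinated at stalled forks, was at 2.58 FPKM in iKO and 0.967 FPKM in Het cells (log2 fold 1.41, SE 0.38, deposited q 0.00106). Its partner Fanci, at 3.57 FPKM in iKO and 1.21 FPKM in Het cells, had a similar log2 fold of 1.55 with an SE of 0.86 and was not called (deposited q 0.155). The core complex genes Fanca, Fancb, Fancc and Fancg and the translocase Fancm had log2 folds between 0.11 and 0.91, and 0 of these 5 passed. At an unadjusted p below 0.05, 4 of the 7 Fanconi genes were higher.

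Both effector kinases rose and neither upstream kinase passed. Chek1, the effector of Atr, was at 6.52 FPKM in iKO and 1.66 FPKM in Het cells (log2 fold 1.97, SE 0.33, deposited q 0.00106). Chek2, the effector of Atm, was at 9.03 FPKM in iKO and 5.31 FPKM in Het cells (log2 fold 0.77, SE 0.30, deposited q 0.0148). Atm was at 3.83 FPKM in iKO and 3.52 FPKM in Het cells, and Atr at 6.62 FPKM in iKO and 5.74 FPKM in Het cells. The merged row of Atrip, the Atr partner, and Trex1 was not called (log2 fold -0.23, SE 0.29).

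In base excision and single-strand break repair, 3 of 5 genes rose, among them the gene with the largest fold of all 30. Parp1, the polymerase that marks breaks with poly(ADP-ribose), was at 172 FPKM in iKO and 21.4 FPKM in Het cells (log2 fold 3.01, SE 0.18, or at most 0.74 from the smallest deposited p). Neil3, a glycosylase for oxidised bases, was at 7.28 FPKM in iKO and 1.95 FPKM in Het cells (log2 fold 1.90, SE 0.36). Ung, the uracil-DNA glycosylase, was at 15.7 FPKM in iKO and 4.89 FPKM in Het cells (log2 fold 1.69, SE 0.34). All 3 had a deposited q of 0.00106. The second polymerase of this kind, Parp2, was at 24.3 FPKM in iKO and 24.0 FPKM in Het cells, and the scaffold Xrcc1 at 21.9 FPKM in iKO and 21.1 FPKM in Het cells.

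None of the 3 nucleotide excision and mismatch repair genes passed, and 1 was higher at an unadjusted p below 0.05. That gene was Ercc2 (also named Xpd), a helicase of the TFIIH complex, at 129 FPKM in iKO and 49.0 FPKM in Het cells (log2 fold 1.40). Its deposited statistic of 10.1 stood beside a deposited p of 0.0242 and a q of 0.155, so its SE of 0.14, computed from that statistic, is smaller than the 0.62 that the deposited p implies. Ercc1, a subunit of the nuclease that cuts beside the lesion, was at 23.3 FPKM in iKO and 24.2 FPKM in Het cells. Msh6, which recognises mismatches, was at 17.8 FPKM in iKO and 14.4 FPKM in Het cells. Apart from Ercc2, the most highly expressed genes without a call were thus Parp2, Ercc1, Xrcc1, Msh6 and Fancg, each with values in both groups that lay less than 1.5-fold apart.

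In second telogen, 7 of the 30 genes were called higher in cKO than in WT cells, against 3.75% of all 13551 genes tested, and 1 was called lower, against 2.87%. At an unadjusted p below 0.05 the counts were 10 higher and 1 lower. The value was larger in cKO cells for 25 of the 30 and smaller for 5, and the median log2((FPKM + 1) ratio) was 0.22 over the repair genes and 0.00 over all genes tested. The anagen and telogen tables share no library.

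The recombination genes called higher in telogen were 3 of 11, each with a WT value under 1 FPKM. Brca1 was at 1.47 FPKM in cKO and 0.161 FPKM in WT cells (log2 fold 3.19, SE 0.64). Exo1 was at 0.827 FPKM in cKO and 0.0684 FPKM in WT cells (log2 fold 3.60, SE 0.83). Rad51ap1 was at 3.07 FPKM in cKO and 0.686 FPKM in WT cells (log2 fold 2.16, SE 0.61). The deposited q was 0.00159 for Brca1 and Rad51ap1 and 0.00295 for Exo1.

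The other recombination genes gave weaker or less certain differences. Bard1 was at 1.00 FPKM in cKO and 0.642 FPKM in WT cells (log2 fold 0.64, SE 0.52), and Blm at 1.58 FPKM in cKO and 1.27 FPKM in WT cells (log2 fold 0.31, SE 0.49). Brip1 was at 0.970 FPKM in cKO and 0.520 FPKM in WT cells, with a deposited q of 0.170. Rad54l again had a large fold with a larger error, 1.72 FPKM in cKO and 0.323 FPKM in WT cells (log2 fold 2.41, SE 2.20). The merged row of Fsbp and Rad54b was called higher in telogen too, at 2.57 FPKM in cKO and 0.799 FPKM in WT cells (log2 fold 1.68, SE 0.52, deposited q 0.00295).

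From the remaining roles, 4 genes rose in cKO cells. Fancd2 was at 1.16 FPKM in cKO and 0.340 FPKM in WT cells (log2 fold 1.77, SE 0.61, deposited q 0.00845). Chek1 was at 2.60 FPKM in cKO and 0.391 FPKM in WT cells (log2 fold 2.73, SE 0.58). Ung was at 5.95 FPKM in cKO and 1.32 FPKM in WT cells (log2 fold 2.18, SE 0.58), and Neil3 at 2.66 FPKM in cKO and 0.316 FPKM in WT cells (log2 fold 3.07, SE 0.69). These last 3 had a deposited q of 0.00159. Chek2 was at 5.83 FPKM in cKO and 3.17 FPKM in WT cells and was not called (log2 fold 0.88, SE 0.42, deposited q 0.0774). In the joint table, where the authors adjusted q over all 21 comparisons, Chek2 and Brip1 were called with nearly the same folds (deposited q 0.00859 and 0.0275), so 9 genes were called higher there, against 6.44% of all genes tested, and 1, Ercc2, lower, against 5.76%.

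The one gene that fell in telogen was Ercc2, at 8.12 FPKM in cKO and 176 FPKM in WT cells (log2 fold -4.44, SE 0.69, deposited q 0.00295). Parp1 was at 97.0 FPKM in cKO and 115 FPKM in WT cells. Its deposited statistic was -0.01, which gives an SE of 18.9 on a log2 fold of -0.24, but its deposited p was 0.615, which implies an SE of 0.48. The other highly expressed genes without a call were Ercc1, at 23.6 FPKM in cKO and 20.8 FPKM in WT cells, Xrcc1, at 22.7 FPKM in cKO and 21.7 FPKM in WT cells, Parp2, at 18.0 FPKM in cKO and 17.3 FPKM in WT cells, Msh6, at 10.7 FPKM in cKO and 10.3 FPKM in WT cells, and Xrcc3, at 5.99 FPKM in cKO and 7.24 FPKM in WT cells.

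**Figure D2:**
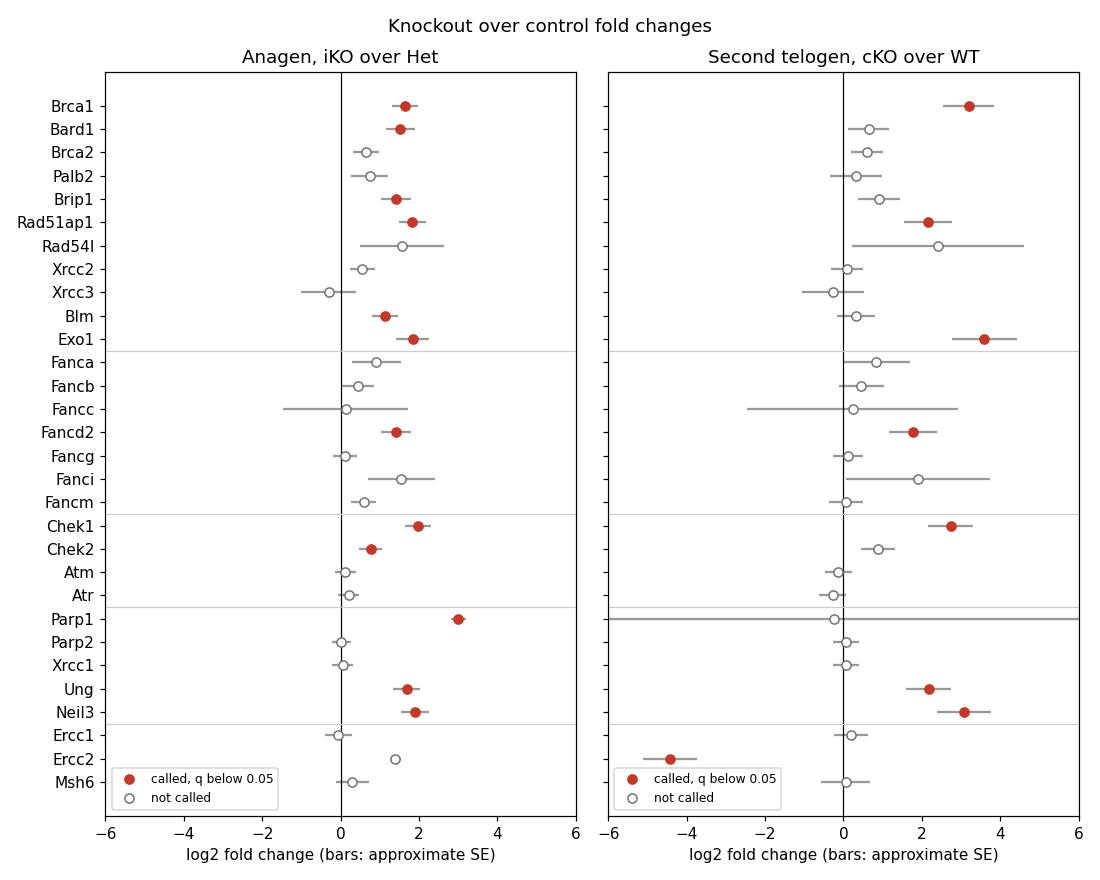
Log2 fold change of each gene, iKO over Het in anagen on the left and cKO over WT in second telogen on the right, with approximate SE as bars; filled points are called at a deposited q below 0.05, open points are not called, and the Parp1 bar in telogen (SE 18.9 from the statistic, 0.48 from the deposited p) runs beyond the panel. Called genes lie right of zero in both panels except Ercc2 in telogen, at -4.44.

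The 7 genes called higher in telogen, Brca1, Rad51ap1, Exo1, Fancd2, Chek1, Ung and Neil3, were all among the 12 called higher in anagen, that is 100% of the telogen calls and 58.3% of the anagen calls. The same overlap over all genes was not counted, so it cannot be called particular to the repair genes. The difference between both knockout effects was tested for each gene as the telogen log2 fold minus the anagen log2 fold. It was called for 1 of the 30 genes, against 0.657% of the 12939 genes in that test, and 2 of the 30 passed at an unadjusted p below 0.05. The called gene was Ercc2, with a difference of -5.84 (SE 0.70, Benjamini-Hochberg adjusted p 2.04e-13). With the larger of both SEs for each fold, its adjusted p was 0.00601. The other was Brca1, with a difference of 1.54 (unadjusted p 0.0325, adjusted p 0.970). For Exo1 the difference was 1.76 (unadjusted p 0.0598). For Parp1, called in anagen only, the difference of -3.25 depended on the SE used. Its SE was 18.9 when taken from the statistics, and the difference was not called. With SEs from the deposited p-values, an alternative chosen after the data were seen, its SE was 0.89 and the difference was called (adjusted p 0.0257). That alternative called 2 of the 30 genes, Ercc2 (adjusted p 0.00237) and Parp1, against 1.15% of all genes. The anagen and telogen comparisons differ in hair cycle stage, strain, age, sexes sampled, Cre driver, tamoxifen treatment and control genotype. A difference between them cannot be assigned to any one of these.

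Other genes of the same pathways were counted from separate lists holding 122 symbols, of which 120 had a row. In anagen 20 of the 120 (16.7%) were called higher in iKO cells, against 5.18% of all genes, and 2 (1.67%) lower, against 5.08%. Their median log2((FPKM + 1) ratio) was 0.12. In telogen 10 (8.33%) were called higher in cKO cells, against 3.75% of all genes, and 0 lower, against 2.87%. The median there was 0.08. The same shares of all genes stand beside each single list below. Further recombination genes were called higher in 8 of 33 cases (24.2%) in anagen and 4 of 33 (12.1%) in telogen. Among them the chromatin remodeller Hells rose in both, with log2 folds of 1.68 (SE 0.28) in anagen and 1.75 (SE 0.44) in telogen.

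Among other checkpoint and damage-signalling genes, 6 of 22 (27.3%) were called higher in anagen, against 5.18% of all genes. In anagen 1 (4.55%) was called lower, near the 5.08% of all genes. In telogen 3 of 22 (13.6%) were called higher, against 3.75% of all genes. The replication fork protein Timeless was at 7.31 FPKM in iKO and 2.56 FPKM in Het cells, and at 2.86 FPKM in cKO and 0.631 FPKM in WT cells. H2afx, the histone variant phosphorylated at breaks, had log2 folds of 1.04 (SE 0.21) in anagen and 1.12 (SE 0.31) in telogen. Cdc25c, the phosphatase on which Chek1 acts, had log2 folds of 1.66 (SE 0.35) in anagen and 3.35 (SE 0.74) in telogen. The gene called lower in anagen was Cdc25b (log2 fold -0.53, SE 0.25, deposited q 0.0297), chosen for naming after its values were seen. Among 19 other base excision genes the 2 called higher (10.5%) in either table were the ligase Lig1 and the flap nuclease Fen1, which also act in replication.

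Other Fanconi genes were called higher in 3 of 10 cases in anagen, against 5.18% of all genes, and 1 of 10 in telogen, against 3.75%. Among 20 other nucleotide excision genes, 0 were called higher and 1, the damage sensor Xpc, was called lower in anagen (log2 fold -0.65, SE 0.26). That is 5% of the list, near the 5.08% of all genes. Neither direction had a call in telogen, where the unadjusted counts were also 0 higher and 0 lower. Of 6 other mismatch repair genes none was called in either table, and 1 was higher in anagen at an unadjusted p below 0.05. End joining had 1 of 10 called higher in anagen, against 5.18% of all genes, too few genes to set apart from that share. In telogen 0 were called higher, and 0 passed at an unadjusted p below 0.05 as well.

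Targets of p53, the transcription factor that the checkpoint kinases act on, were counted beside them. Of 28 such genes, 2 were called higher in anagen iKO cells, Plk2 (log2 fold 0.85, SE 0.26) and Pmaip1 (0.66, SE 0.30), and 2 were called lower, Sesn1 (-0.88, SE 0.25) and Dcxr (-0.66, SE 0.23). Each direction is 7.14% of the list, near the 5.18% and 5.08% of all genes. In telogen 1 was called higher in cKO cells, Phlda3 (0.75, SE 0.28), and 3 were called lower. Those were the cell cycle inhibitor Cdkn1a, at 88.9 FPKM in cKO and 185 FPKM in WT cells (log2 fold -1.06, SE 0.36), Btg2 (-1.44, SE 0.44) and Plk3 (-1.29, SE 0.37). These are 3.57% of the list higher and 10.7% lower, against 3.75% and 2.87% of all genes. The median log2((FPKM + 1) ratio) of the 28 was 0.03 in anagen and 0.11 in telogen.

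Cell cycle genes moved with the repair genes. Of 38 S phase genes, 34 were called higher in anagen iKO and 26 in telogen cKO cells, with 0 called lower in either. Of 29 mitosis genes, 29 were called higher in anagen and 26 in telogen, again with 0 lower. At an unadjusted p below 0.05 both lists still had 0 genes lower in either table. The summed FPKM of the S phase list in the joint table was 1072 in anagen iKO and 469 in Het cells, and 603 in cKO, 461 in second telogen iKO and 302 in WT cells. For the mitosis list it was 652 in anagen iKO and 185 in Het cells, and 236 in cKO, 156 in second telogen iKO and 41.8 in WT cells. The part of cell cycle activity in the repair gene differences was not tested.

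Markers of other cell types differed between the groups as well. The summed FPKM of 8 fibroblast markers was 86.1 in anagen iKO and 137 in Het cells, and 187 in cKO, 73.6 in second telogen iKO and 147 in WT cells. The second telogen sums rested on few genes, since 3 of the 8 were at 1 FPKM or more in each of those groups. The median of the 8 was 12.4 FPKM in anagen iKO and 22.2 FPKM in Het cells. In second telogen it was 0.37 FPKM in cKO, 0.35 FPKM in iKO and 0.34 FPKM in WT cells. The summed FPKM of 8 immune markers found of 9 listed was 22.7 in anagen iKO and 12.7 in Het cells. In second telogen the immune sum was 78.9 in cKO, 94.8 in iKO and 69.0 in WT cells. The summed FPKM of 6 interfollicular epidermis markers found of 7 was 1558 in anagen iKO and 1293 in Het cells. In second telogen the epidermis sum was 6035 in cKO, 4264 in iKO and 4685 in WT cells. No gene of these 3 lists was at 0 in any group. Over the 7 groups the sums ran between 37.1 and 75.6 for 7 endothelial and pericyte markers (Rgs5 at 0 in cKO and WT, Cdh5 at 0 in second telogen iKO), between 27.2 and 56.3 for 7 melanocyte markers and between 19.03 and 45.9 for 6 sebaceous markers. Of the 7 endothelial and pericyte markers, 1 was at 1 FPKM or more in each second telogen group. The summed FPKM of 10 hair shaft and root sheath markers was 165 in anagen iKO and 229 in Het cells. In second telogen this sum was 44.8 in cKO, 46.9 in iKO and 34.5 in WT cells. Krt81 was at 0 in cKO and WT and Krt33b at 0 in second telogen iKO and WT. The part of other cell types in the repair gene differences was not tested.

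The inducible knockout in second telogen was set against the same WT libraries as the cKO group, in the joint table. There 6 of the repair genes were called higher in iKO cells, against 7.01% of all genes tested, and 0 lower, against 5.88%; at an unadjusted p below 0.05 the counts were also 6 and 0. Exo1, at 0.271 FPKM in iKO and 0.0711 FPKM in WT cells, was not tested by the authors. Brca1 was at 0.814 FPKM in iKO and 0.167 FPKM in WT cells (log2 fold 2.28, SE 0.57). Chek1 was at 1.51 FPKM in iKO and 0.406 FPKM in WT cells (log2 fold 1.89, SE 0.52), and Neil3 at 1.79 FPKM in iKO and 0.329 FPKM in WT cells (log2 fold 2.44, SE 0.60). The remaining calls were Rad51ap1 (log2 fold 1.47, SE 0.54), Fancd2 (1.51, SE 0.53) and Chek2 (0.96, SE 0.36), with deposited q-values between 0.00254 and 0.00600. The q was 0.000444 for Brca1, Chek1 and Neil3.

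Both telogen knockouts were compared with the same WT libraries, so their calls are not independent. Ung was at 2.24 FPKM in iKO and 1.37 FPKM in WT cells and was not called (deposited q 0.169), and at 6.19 FPKM in cKO cells of the same table. Ercc2 was at 193 FPKM in iKO and 183 FPKM in WT cells (log2 fold 0.07, SE 0.09 from the statistic and 0.57 from the deposited p of 0.899), whereas the cKO value there was 8.45 FPKM; set directly against cKO cells, Ercc2 was called higher in iKO cells (log2 fold 4.51, SE 0.59, deposited q 0.000444). Strain, age, sex, tamoxifen treatment and Cre driver differ between the iKO group and both other second telogen groups. Foxc1 was at 3.17 FPKM in second telogen iKO and 27.5 FPKM in WT cells, 8.66-fold lower.

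Within the inducible knockout, 0 repair genes were called higher in second telogen than in anagen, against 17.6% of all genes tested, and 12 were called lower, against 15.5%. Age differs together with hair cycle stage here, at day 60 in telogen and day 30 in anagen. Ung fell most among the base excision genes, to 2.24 FPKM in telogen iKO, against 14.8 FPKM in anagen iKO cells (6.63-fold lower). Exo1 was at 0.271 FPKM in telogen iKO and 1.86 FPKM in anagen iKO cells (6.86-fold lower), and Brca1 at 0.814 FPKM in telogen iKO and 4.29 FPKM in anagen iKO cells (5.27-fold lower). The other 9 called lower were Bard1, Brip1, Rad51ap1, Blm, Fanca, Fancd2, Fancm, Chek1 and Neil3, by 1.73-fold to 4.74-fold. At an unadjusted p below 0.05 the counts were 0 higher and 17 lower.

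Between the control groups, 7 repair genes were called higher in anagen Het than in second telogen WT cells, against 11.9% of all genes tested, and 1 was called lower, against 13.5%. Genotype, Cre driver, tamoxifen treatment, strain, age and the sexes sampled differ together with hair cycle stage here. The 7 were Brca1, Rad51ap1, Exo1, Fancd2, Chek1, Ung and Neil3, with log2 folds between 1.37 (Fancd2) and 3.03 (Brca1). The gene called lower was Parp1, at 20.2 FPKM in anagen Het and 119 FPKM in WT cells, 5.88-fold lower (log2 fold -2.56, SE 0.21, or at most 0.63 from the smallest deposited p). Ercc2 was at 46.2 FPKM in Het and 183 FPKM in WT cells and was not called.

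Anagen II and first telogen cells were represented by 1 library each, so their difference has no replicate check and no test. Taking a gene as past the threshold at 2-fold with at least 1 FPKM in one group, 12 repair genes were higher in anagen II, against 10.4% of all genes, and 0 were lower, against 20.1%. Parp1 was at 350 FPKM in anagen II and 15.0 FPKM in first telogen, 23.3-fold higher. Neil3 was at 8.40 FPKM in anagen II and 0.674 FPKM in first telogen, and Rad51ap1 at 10.3 FPKM in anagen II and 0.931 FPKM in first telogen. Brca1 was 7.02-fold higher in anagen II and Ung 5.63-fold higher.

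The other 7 past 2-fold were Rad54l, Fanca, Fancd2, Fanci, Exo1, Blm and Chek1, between 3.35-fold and 7.73-fold. Bard1, at 3.15 FPKM in anagen II and 3.83 FPKM in first telogen, and Brip1, at 1.75 FPKM in anagen II and 2.00 FPKM in first telogen, had smaller values in anagen II, unlike Brca1. The summed FPKM of the S phase list was 1135 in anagen II and 347 in first telogen, and that of the mitosis list 735 in anagen II and 87.0 in first telogen. Fibroblast markers summed to 1054 FPKM in anagen II and 2232 FPKM in first telogen, and immune markers to 26.1 FPKM in anagen II and 262 FPKM in first telogen. Epidermis markers summed to 609 FPKM in anagen II and 1542 FPKM in first telogen, and hair shaft and root sheath markers to 207 FPKM in anagen II and 69.1 FPKM in first telogen.

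**Figure D3:**
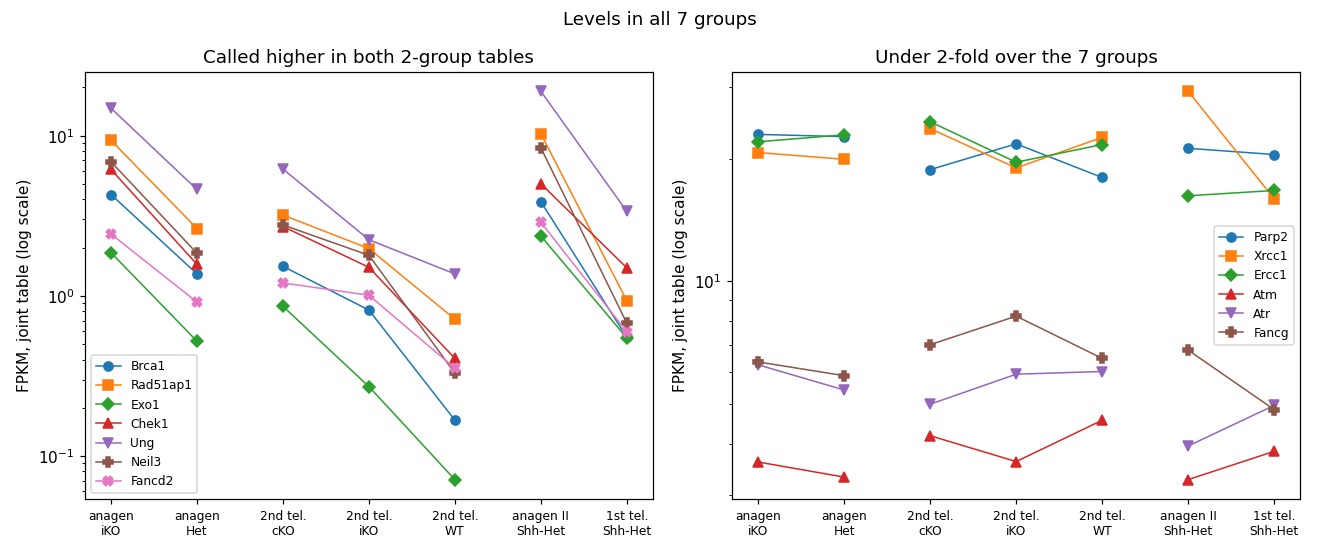
FPKM of the joint table (log scale) in the 7 groups for the 7 genes called higher in both 2-group tables (left) and for 6 genes that varied less than 2-fold (right); lines join groups of one set, and each point is the authors' pooled value. On the left, 6 of the 7 genes reach under 1 FPKM in second telogen WT cells; on the right, Parp2, Xrcc1, Ercc1, Fancg, Atr and Atm stay within 2-fold.

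The repair genes were also described by how far they varied over the 7 groups of the joint table. The ratio of the highest to the lowest group value was under 2-fold for 13 of the 30 genes, against 48.8% of 13385 expressed gene models, and at least 8-fold for 11, against 15.1%. The share under 2-fold is thus near that of all models. The genes under 2-fold were Brca2, Xrcc2, Xrcc3, Fancb, Fancc, Fancg, Fancm, Atm, Atr, Parp2, Xrcc1, Ercc1 and Msh6, with ratios between 1.28 (Parp2) and 2.00 (Fancb). Both upstream kinases were among them, Atm between 3.27 and 4.57 FPKM and Atr between 3.95 and 6.25 FPKM.

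The 11 widely varying genes were Brca1, Rad51ap1, Rad54l, Exo1, Fancd2, Fanci, Chek1, Parp1, Ung, Neil3 and Ercc2. Of them, 10 had their highest value in anagen iKO or anagen II cells, the exception being Ercc2, and 9 had their lowest in second telogen WT cells, the exceptions being Parp1 and Ercc2. The same shares among all widely varying gene models were not counted, so this cannot be called particular to the repair genes. Brca1, for example, was at 4.29 FPKM in anagen iKO and 1.37 FPKM in Het cells. In second telogen it was at 1.53 FPKM in cKO, 0.814 FPKM in iKO and 0.167 FPKM in WT cells. It was at 3.87 FPKM in anagen II and 0.551 FPKM in first telogen. Values per library were not analysed here, so the order of neighbouring groups was not tested beyond the comparisons above.

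**Figure D4:**
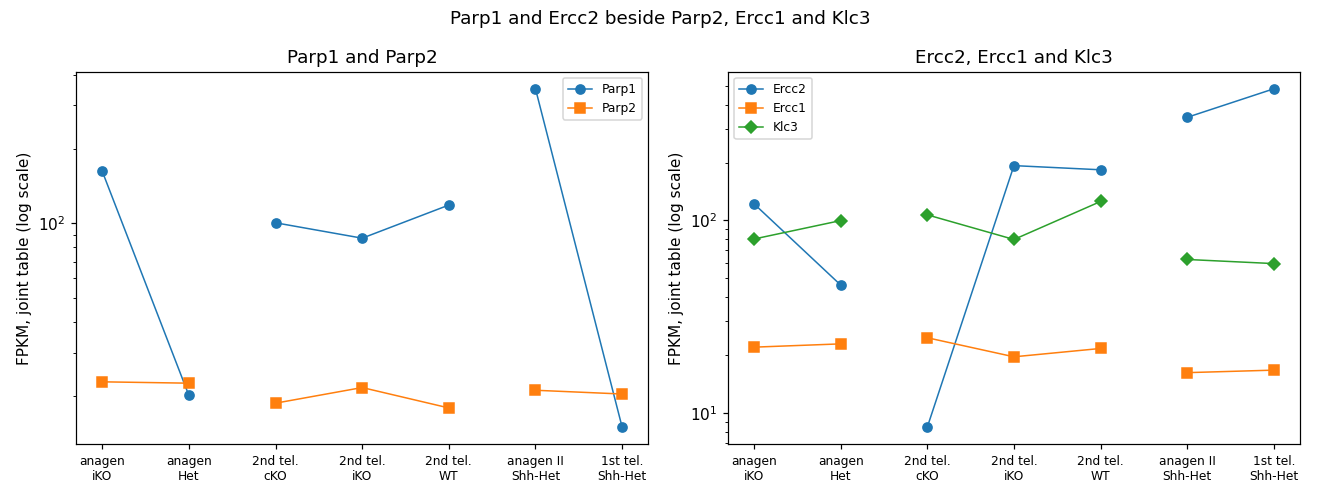
FPKM of the joint table (log scale) in the 7 groups for Parp1 with Parp2, and for Ercc2 with Ercc1 and Klc3, the gene model that shares the Ercc2 locus; lines join groups of one set. Parp1 lies between 15.0 and 350 FPKM while Parp2 stays between 18.0 and 22.9, and Ercc2 drops to 8.45 FPKM in cKO cells alone.

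Unlike the other widely varying genes, Parp1 and Ercc2 did not have their lowest value in second telogen WT cells. They were also the genes with the highest values. Parp1 still had its highest value in anagen II cells, at 350 FPKM. Parp1 was at 163 FPKM in anagen iKO and 20.2 FPKM in Het cells. In second telogen it was at 101 FPKM in cKO, 87.2 FPKM in iKO and 119 FPKM in WT cells, all above the Het value. The cause was not tested. Ercc2 was at 122 FPKM in anagen iKO and 46.2 FPKM in Het cells, then at 343 FPKM in anagen II and 483 FPKM in first telogen.

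Positions are given in the mouse build mm9, which the authors' tables use. The authors' gene model for Parp1 spans chr1:182499106-182531385 and holds no other gene model. That for Ercc2 spans chr7:19967388-19989453, which is 22066 bases against 13678 bases for the RefSeq gene, since it also holds Klc3, a kinesin light chain. Klc3 was at 103 FPKM in cKO and 121 FPKM in WT cells in telogen, and at 84.9 FPKM in iKO and 106 FPKM in Het cells in anagen, and was called in neither table. In the joint table it was called lower in second telogen iKO than in WT cells, at 79.7 FPKM in iKO and 126 FPKM in WT cells (log2 fold -0.66, SE 0.32, deposited q 0.0133). The sources used here do not state whether counting used strand, so how reads of overlapping genes were divided is uncertain.

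In all, 9 of the 30 genes share their locus with another gene model: Rad54l, Xrcc3, Fanca, Fancc, Fanci, Atr, Ercc1, Ercc2 and Msh6. Their median SE was 0.63 in anagen and 0.79 in telogen, against 0.33 in anagen and 0.53 in telogen for the 21 genes with a locus of their own. Of genes past 2-fold in anagen, 0 of 3 with a shared locus were called, namely Rad54l, Fanci and Ercc2, against 11 of 11 with their own. In telogen the counts were 1 of 3 with a shared locus and 7 of 7 with their own. The same held among all genes past 2-fold, of which 29.5% with a shared locus and 67.7% with their own were called in anagen, and 24.8% with a shared locus and 57.2% with their own in telogen. Not every shared locus had a large SE: that of Atr in anagen was 0.26. The part of the shared loci in the missing calls was not tested.

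**Figure D5:**
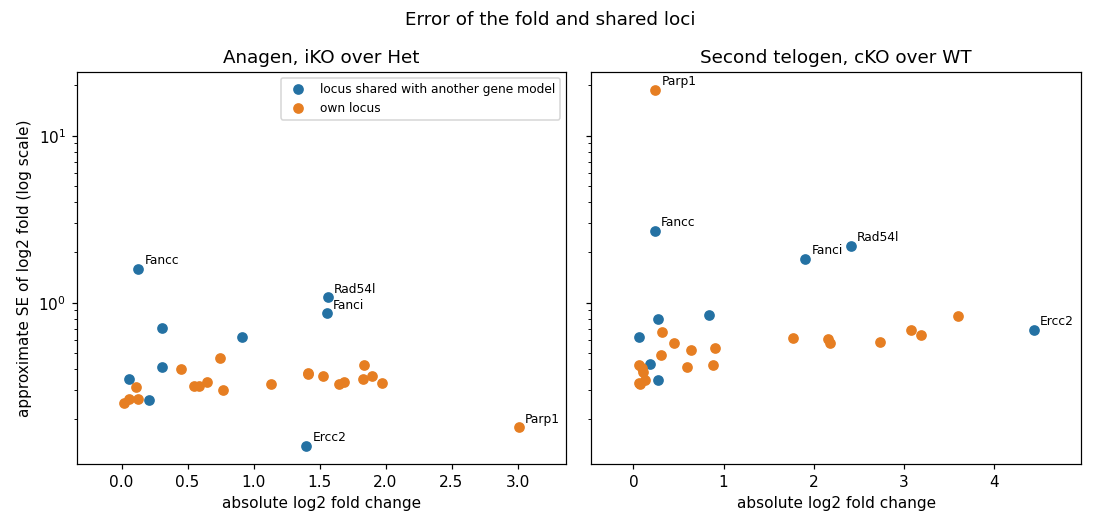
Approximate SE of the log2 fold (log scale) against the absolute log2 fold for the 30 genes in anagen (left) and second telogen (right); the colour marks genes whose locus holds another gene model. Fancc, Rad54l and Fanci, with shared loci, have the largest SEs in anagen, and Parp1 has the largest in telogen (18.9 from the statistic, 0.48 from its deposited p).

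Promoters were examined because part of these genes were called higher in the same comparisons as S phase genes. RefSeq promoters of build GRCm38.p6, 250 bases before to 50 bases after the gene start, were found for 27 of the 30 genes; Xrcc2, Exo1 and Fancd2 had no entry. E2F factors, which drive S phase genes, bind words such as TTTCCCGC, TTTCGCGC, TTTGCCGC and TTTGGCGC, and at least one of these stood on either strand in 5 of the 27 (18.5%), against 2.60% of 27025 genes. The 5 were Bard1, Brca2, Chek2, Fancg and Msh6. Genes called higher in anagen held 2 of these 5 matches among 10 promoters, and the others held 3 among 17. Of these, 3 sites are printed, a pair from called genes and one from an uncalled gene, 30 bases each on the strand of the gene with the E2F word in capitals:
Bard1, chr1:71103163-71103192, minus strand, the word 209 bases before the start: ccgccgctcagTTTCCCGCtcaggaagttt
Chek2, chr5:110839820-110839849, plus strand, 152 bases before the start, the word in reverse complement: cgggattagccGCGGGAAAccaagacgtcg
Fancg, chr4:43010335-43010364, minus strand, 52 bases before the start: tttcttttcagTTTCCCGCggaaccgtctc

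The first 2 sites belong to genes that rose in anagen iKO cells, by log2 folds of 1.52 for Bard1 and 0.77 for Chek2. The third belongs to Fancg, whose log2 fold was 0.11 in both 2-group tables. Of 2 other words searched on both strands, CCAAT, the binding word of NF-Y, stood in 16 of 27 repair promoters (59.3%) and 41.1% of all genes. TTTGAA, the cell cycle homology region of mitotic genes, stood in 1 of 27, Bard1, and 20.2% of all genes. No searched word contains another. A match is a description of the sequence, and a promoter without one says only that these letters are not in this window.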

How the data were processed

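TopHat, Cufflinks and Cuffdiff with build mm9 are named in the submitters' processing notes; the sources used here give neither settings nor strandedness. The authors deposited 3 tables, for anagen, for telogen and for all 21 pairs of groups jointly. Expression is FPKM, pooled by the authors to 1 value per group. The log2 fold and a test statistic (a score signed like the fold) are the authors' deposited values, as are the p-value and q-value. Without counts, the depth of sequencing is unknown, and counting error could not be computed. Tables were scaled separately, so levels are compared only within a table. No own fit across libraries was possible, because tables hold no value per library.

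SEs were computed as log2 fold divided by statistic, in Python 3.11.15 (pandas 2.3.3, scipy 1.17.1). Differences of knockout effects were tested by a two-sided z test with Benjamini-Hochberg adjustment over all genes in both tables. The test was checked on simulated data drawn with the same SEs, so the check cannot show whether those SEs are right. Medians used log2(FPKM + 1), which understates changes of low genes. The genes named are every listed member, with values for each called one and for the 6 highest of the others, plus up to 4 genes by lowest p from each other list. The members, lists and tests were chosen with earlier results of these data known. P-values measure the spread between 2 libraries per group, as the authors' test models it. Alternatives were other pseudocounts, a minimum of 1 FPKM, a q below 0.01, a p from the statistic, and the joint table. Some genes of the other repair lists are counted but not reported here by name.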

Additional observations from a re-analysis of the deposited data

Results flagged for a closer look

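The Ercc2 fold of knockout over control cells differed between both 2-group comparisons. Its log2 fold was -4.44 in second telogen (cKO over WT) and 1.40 in anagen (iKO over Het). The difference of -5.84 (SE 0.70) passed the test of the difference itself, with a Benjamini-Hochberg adjusted p of 2.04e-13 over 12939 genes. With the larger SE of each fold the adjusted p was 0.00601, and the anagen fold itself was not called (deposited q 0.155). The second telogen iKO value, 193 FPKM in the joint table, was set beside a WT value of 183 FPKM (log2 fold 0.07, SE 0.09 from the statistic, 0.57 from the deposited p). Between both telogen knockouts, Ercc2 was called higher in iKO than in cKO cells (log2 fold 4.51, SE 0.59, deposited q 0.000444). The locus also holds Klc3, at 107 FPKM in cKO, 79.7 FPKM in second telogen iKO and 126 FPKM in WT cells, and Klc3 was called lower in second telogen iKO than in WT cells (log2 fold -0.66, deposited q 0.0133). The part of the shared locus in the Ercc2 difference was not tested. Both 2-group comparisons also differ in hair cycle stage, strain, age, sexes sampled, Cre driver, tamoxifen treatment and control genotype. The Ercc2 difference cannot be assigned to any one of these.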

How the results depend on the processing

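No paired analysis was possible because the tables hold 1 pooled value per group, and for the same reason no replicate could be left out. No result turned its direction, and recomputed medians and counts stayed close to those reported in 73 cases and moved in 20. The members' median log2 ratio moved with the pseudocount, to 0.82 (0.1) and 0.30 (5) in anagen iKO over Het, 0.36 and 0.0963 in cKO over WT, -0.68 and -0.26 in second telogen over anagen iKO, 0.32 and 0.0866 in Het over WT, and 0.59 and 0.29 in anagen II over first telogen. It moved to 0.0708 with 5 in second telogen iKO over WT, and to 0.0757 in Het over WT with a mean of at least 1 FPKM. At a q below 0.01 the other repair genes called lower in anagen were 1, p53 targets in anagen 1 higher and 1 lower, and p53 targets in telogen 0 higher. In the joint table the cKO comparison gave 2 other repair genes lower, and p53 targets 3 higher and 5 lower. There Brip1 (log2 fold 0.90) and Chek2 (0.88) were also called. The causes were not tested. Ercc2 passed the difference test under the 4 alternatives run; with SEs from the deposited p-values, added after seeing the data, 2 genes passed, Ercc2 and Parp1. Unknown depth limits every gene under 1 FPKM.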

Other observations

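In second telogen iKO cells, p53 targets were called higher than in WT cells for 7 of 28 genes, against 7.01% of all genes, with 0 called lower, against 5.88%, and at an unadjusted p below 0.05 for 12 higher and 0 lower. Pmaip1, which promotes apoptosis, was at 10.99 FPKM in iKO and 3.32 FPKM in WT cells (log2 fold 1.73, SE 0.33), and Plk2 at 41.0 FPKM in iKO and 19.4 FPKM in WT cells (log2 fold 1.08, SE 0.28), both with a deposited q of 0.000444. Cdkn1a, chosen for naming after its values were seen, was at 285 FPKM in iKO and 192 FPKM in WT cells (log2 fold 0.57, SE 0.32, deposited q 0.0480), and at 88.9 FPKM in cKO and 185 FPKM in WT cells of the telogen table (log2 fold -1.06). Both telogen knockouts share the WT libraries. The iKO group differs from both cKO and WT cells in strain, age, sexes sampled, Cre driver and tamoxifen treatment. Between iKO and WT cells these cannot be told apart from Foxc1 loss. Against anagen iKO cells, second telogen iKO cells had 12 of the 28 p53 targets (42.9%) called higher, against 17.6% of all genes. In that comparison 4 (14.3%) were called lower, near the 15.5% of all genes. Repair genes had 0 called higher and 12 lower there.

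Of 120 other repair genes, 9 (7.5%) were called higher and 1 (0.833%) lower in second telogen iKO than in WT cells, against 7.01% and 5.88% of all genes, so the share higher is near the background. The gene called lower was Prkdc, the catalytic kinase of end joining, at 2.81 FPKM in iKO and 4.23 FPKM in WT cells (log2 fold -0.59, SE 0.30, deposited q 0.0213); it was chosen for naming after its values were seen. The Wee1 kinase, which restrains entry to mitosis, was at 17.6 FPKM in iKO and 5.17 FPKM in WT cells (log2 fold 1.77, SE 0.28).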
